A study of Mus musculus with 8 samples.

Results

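Sulfation is the last decoration of many mucin, glycolipid and proteoglycan sugars, and 10 mouse genes of this pathway are described here in sorted goblet cells of the small intestine and the colon. They are the PAPS synthases Papss1 and Papss2, the galactose 3-O-sulfotransferases Gal3st1 and Gal3st2, and the carbohydrate sulfotransferases Chst1, Chst2, Chst4, Chst7, Chst11 and Chst12. Members were chosen by gene symbol through a rule that uses no measured value, although earlier results of these data were known when the list was made. All 10 were found among 16590 named genes of the array, on 12 of its 25697 probes. The cells came from C57Bl/6 mice. Epithelium was released with 0.05% EDTA at 37 degrees C for 15 minutes, and cells negative for CD45 and CD24, that stained for cytokeratin 18 and for the lectin UEA-I were taken as goblet cells. There were 4 arrays of small intestine and 4 of colon, and all 8 samples share strain, sort and array type. The labels name no treatment or age and do not say whether each sample is a separate animal, so each p-value reflects spread among these 8 samples and that spread may be technical.

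Every sulfotransferase of the Golgi uses the same sulfate donor, PAPS, which the bifunctional PAPS synthases make in the cytosol or nucleus from sulfate and ATP. Transporters then carry PAPS into the Golgi lumen, where each sulfotransferase places sulfate on a particular sugar position. Sulfated mucin, or sulfomucin, has long been used in histology to tell goblet cells of the large intestine from those of the small intestine.

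Each value below is a normalized log2 intensity for 1 probe on 1 array, and differences are colon minus small intestine. Levels are compared between arrays for the same probe and never between probes. A probe counted as above background where its detection p-value, the share of negative control probes at least as bright, was below 0.05, and it was tested where this held on at least 4 of 8 arrays. Between 12447 and 13922 probes per array were above background, and that number did not separate the segments (exact permutation test, two-sided, p = 0.286). As the arrays hold RNA of many cells, fewer expressing cells and less RNA per cell cannot be told apart.

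Of the 10 sulfation genes, 6 passed the filter on dim probes and 4 were below background on all 8 arrays. Over the whole array, 9080 of 16590 named genes had a probe that passed the filter. Among the 6 tested, colon had the higher level of 2 (Gal3st1 and Chst4) and small intestine of 1 (Gal3st2), while 3 were not called (Papss1, Papss2 and Chst11). Over all 9080 genes tested in the same fit, 13.1% were called with the colon higher, 9.3% with the small intestine higher and 22.4% in either direction. Of the 8 tested probes of these genes, 2 rose and 2 fell in colon, where 11.6% and 9.83% of all 13618 tested probes did. The median difference of the 6 tested genes was 0.24 log2, beside 0.07 over all tested genes. The 4 and 4 values did not overlap for 3 of the 6 (Papss1, Gal3st2 and Chst4), beside 26.2% of all tested genes.

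**Figure D1:**
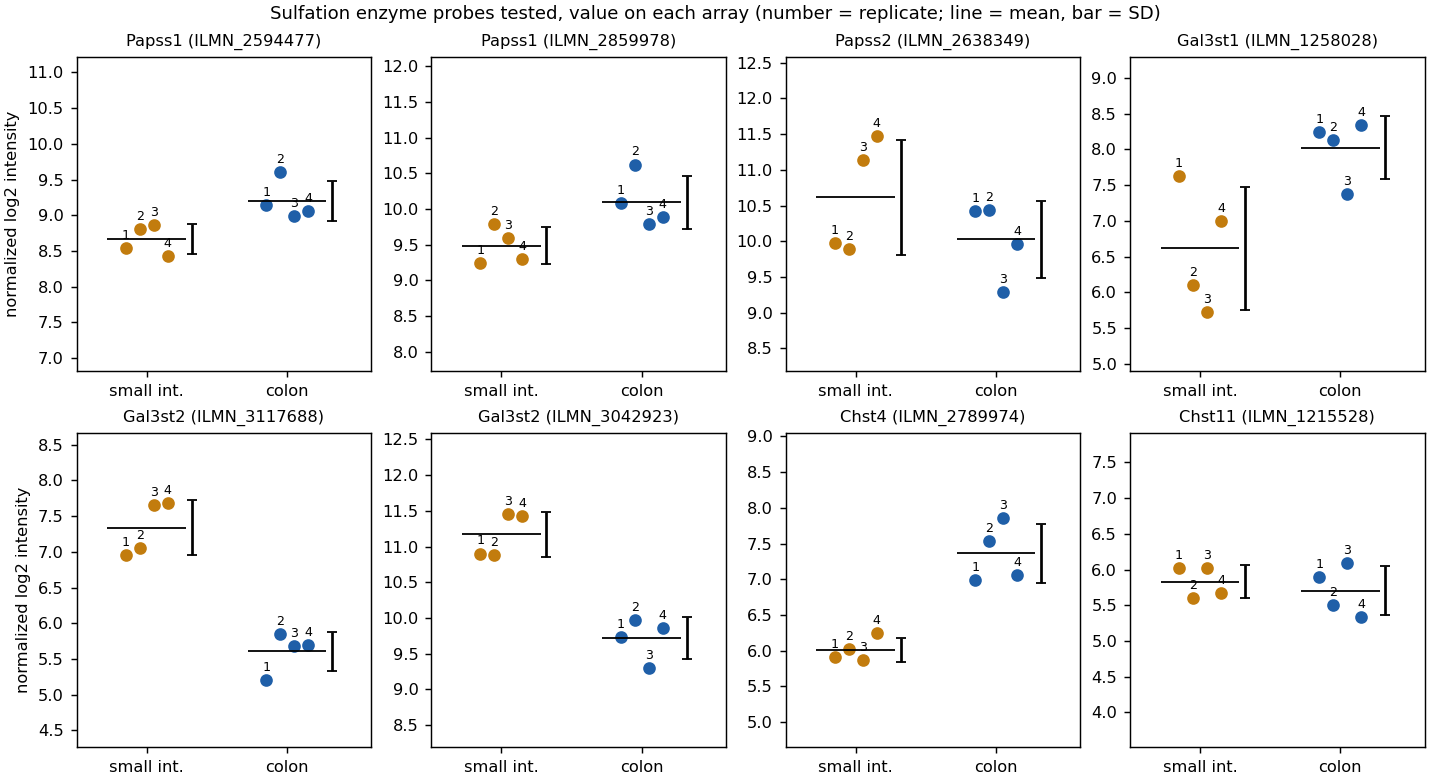
Normalized log2 intensity (vertical axis) of the 8 tested probes of sulfation enzymes, by segment. Points are arrays numbered by replicate, lines are means and bars SDs (n = 4), and every panel spans the same range of log2 units; the colon points of Gal3st2 lie below, and those of Chst4 above, all small-intestinal points.

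Both PAPS synthases were above background on all 8 arrays, and neither passed the test between segments. Papss1, a widely expressed synthase, has a pair of probes. Probe ILMN_2859978 read 9.25, 9.79, 9.60 and 9.31 on small-intestinal arrays 1 to 4 and 10.09, 10.62, 9.79 and 9.88 on colon arrays 1 to 4. The lowest colon array lay only just above the highest small-intestinal one, and colon array 2 was the highest of all. The difference was 0.61 log2, or 1.53-fold (95% interval 0.10 to 1.12), with an adjusted p of 0.0879. The further probe, ILMN_2594477, gave 0.53 (95% interval 0.08 to 0.98, adjusted p = 0.0923), also without overlap.

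Papss2 is the synthase whose loss causes the skeletal disorder of brachymorphic mice. Its probe read 9.97, 9.89, 11.14 and 11.47 in small intestine and 10.42, 10.44, 9.29 and 9.96 in colon. Small-intestinal arrays 3 and 4 stood above every colon array, whereas arrays 1 and 2 lay within the colon range. The difference was -0.59 (95% interval -1.46 to 0.28, adjusted p = 0.326). Papss1 and Papss2 each passed under 1 of 23 alternatives, with weights per array (adjusted p = 0.0238 and 0.0294). Their adjusted p ran from 0.0238 to 0.455 and from 0.0294 to 0.659 over these alternatives.

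Gal3st1, the cerebroside sulfotransferase, makes sulfatide, a sulfated glycolipid of myelin and of several epithelia. It was higher in colon by 1.41 log2, or 2.65-fold (SE 0.40, adjusted p = 0.0269). The small-intestinal arrays read 7.63, 6.10, 5.72 and 7.00 and the colon arrays 8.25, 8.13, 7.37 and 8.34. The groups overlapped, since small-intestinal array 1 stood above colon array 3, and the small-intestinal values were spread more widely (6.61 ± 0.86) than those of colon (8.02 ± 0.44; SD, n = 4 each). The call depended on single arrays. It was lost without colon array 1 (adjusted p = 0.0709), 2 (0.0568) or 4 (0.0737), or without small-intestinal array 2 (0.0795) or 3 (0.0755), with differences of 1.11 to 1.75 on leaving out any single array. It was also lost without scaling between arrays (0.121), on the authors' processed values (0.0601) and with no filter on dim probes (0.0773). With no background correction the difference was 0.73, with the call kept (adjusted p = 0.0238). Small-intestinal arrays 2 and 3 (6.10 and 5.72) stood close to the floor, whereas arrays 1 and 4 stood higher. The lowest normalized value above background on arrays 2 and 3 was 5.28 and 5.38.

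The promoter windows of the genes that passed are shown because Gal3st1 and Chst4 rose and Gal3st2 fell between the same samples. Sequences are from RefSeq on GRCm38.p6, from 250 bases before to 50 bases after an annotated start, and capitals mark any match, on either strand, to one of 5 motifs: TTTAT from sites of CDX factors, AGATAA from sites of GATA factors, the E-box CAGCTG, the promoter box TATAAA or the GC-rich box GGGCGG. The first of these, read on the opposite strand, lies inside TATAAA, so both overlap. The first of 3 windows of Gal3st1, chr11:3983386-3983685 on the plus strand, holds none of them, like its other windows.
Gal3st1: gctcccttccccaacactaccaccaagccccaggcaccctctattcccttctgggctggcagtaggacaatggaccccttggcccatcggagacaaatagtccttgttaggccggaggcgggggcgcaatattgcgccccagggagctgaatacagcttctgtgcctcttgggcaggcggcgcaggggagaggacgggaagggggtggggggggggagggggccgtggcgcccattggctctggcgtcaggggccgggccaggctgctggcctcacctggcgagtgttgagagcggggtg

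Gal3st2 places sulfate on the 3-position of galactose in glycoprotein chains. It was lower in colon on both of its probes. Probe ILMN_3042923 read 10.90, 10.89, 11.46 and 11.43 in small intestine and 9.73, 9.98, 9.30 and 9.86 in colon. All small-intestinal arrays lay above all colon arrays, with small-intestinal arrays 3 and 4 the highest. The difference was -1.45 (SE 0.23, adjusted p = 0.000873), which is 2.73-fold. Probe ILMN_3117688 fell by 1.73 (SE 0.24, adjusted p = 0.000369), from 7.34 ± 0.39 to 5.61 ± 0.28 (SD, n = 4 each), and was above background on 3 of 4 colon arrays, so its fold was measured near the floor. The call for Gal3st2 was kept under all 23 alternatives tried (adjusted p from 5.64e-05 to 0.0126). Its window, chr1:93861094-93861393 on the plus strand, holds CAGCTG at 99 and at 43 bases before the start and no other motif searched.
Gal3st2: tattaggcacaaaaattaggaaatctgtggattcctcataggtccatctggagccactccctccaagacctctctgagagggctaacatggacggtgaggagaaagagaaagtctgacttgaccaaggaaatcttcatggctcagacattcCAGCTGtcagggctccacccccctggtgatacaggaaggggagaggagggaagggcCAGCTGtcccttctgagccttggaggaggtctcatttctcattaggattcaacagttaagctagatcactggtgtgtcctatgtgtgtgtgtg

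A related gene nearby, Gal3st2c, was read by probes that went opposite ways. In the RefSeq gene table, Gal3st2, Gal3st2b and Gal3st2c follow each other with only pseudogenes between them. Probe ILMN_3015989 of Gal3st2c read 6.44, 5.89, 5.63 and 6.18 in small intestine and 8.74, 9.27, 8.86 and 8.70 in colon. These groups did not overlap, and the difference was 2.86 (SE 0.23, adjusted p = 7.49e-06). Probe ILMN_3087413 of the same gene read 8.54, 9.14, 9.21 and 9.29 in small intestine and 7.81, 7.89, 7.09 and 7.58 in colon. It also separated the groups, but with a difference of -1.45 (SE 0.24, adjusted p = 0.00140), close to that of Gal3st2. Both calls were kept under all 22 alternatives tried for these probes. The probe sequences were not used here, so which transcript or which copy of this family each of these 4 probes reads is uncertain, and that holds for the Gal3st2 result too. No probe was named for Gal3st2b. The starts of Gal3st2 and Gal3st2c are not copies of each other in the windows compared: aligned end to end, they were identical at 45.0% of positions. The window of Gal3st2c, chr1:93990255-93990554 on the plus strand, holds 4 matches to TTTAT, each of them also a match to TATAAA.
Gal3st2c: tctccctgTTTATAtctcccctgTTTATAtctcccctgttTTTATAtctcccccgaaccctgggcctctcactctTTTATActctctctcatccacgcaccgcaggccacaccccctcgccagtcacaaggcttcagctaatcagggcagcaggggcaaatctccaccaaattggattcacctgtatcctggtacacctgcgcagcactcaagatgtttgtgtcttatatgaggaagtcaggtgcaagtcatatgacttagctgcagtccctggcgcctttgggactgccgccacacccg

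**Figure D2:**
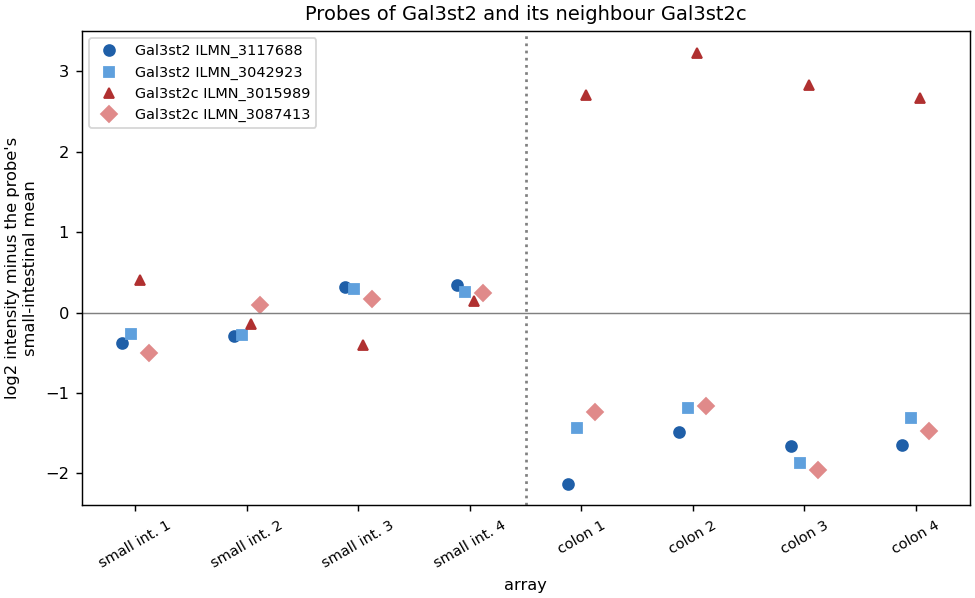
Log2 intensity of each probe minus its own small-intestinal mean (vertical axis) on each of the 8 arrays, for the probes of Gal3st2 and Gal3st2c. On the colon arrays 1 Gal3st2c probe lies above 0 and the other 3 probes lie below 0.

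Chst4 transfers sulfate to the 6-position of N-acetylglucosamine and is known in the mouse for the sulfation of colonic mucin and of L-selectin ligands in lymph node venules. It was higher in colon by 1.35 log2, or 2.55-fold (SE 0.23, adjusted p = 0.00150). The small-intestinal arrays read 5.92, 6.02, 5.87 and 6.24 and the colon arrays 7.00, 7.53, 7.86 and 7.06. Each colon array lay above each small-intestinal array, with colon arrays 2 and 3 the highest. Chst4 was above background on all 8 arrays but stood close to the floor in small intestine, where the lowest normalized value above background was 5.28 to 5.60 log2 per array. Leaving out any single array kept the call (adjusted p from 0.00208 to 0.00668). It was lost without scaling between arrays (adjusted p = 0.0591), and the difference was 0.60 with no background correction. The window of Chst4, chr8:110039285-110039584 on the minus strand, holds 1 match to TTTAT at 118 bases before the start, on the opposite strand, and CAGCTG at 195 bases before it.
Chst4: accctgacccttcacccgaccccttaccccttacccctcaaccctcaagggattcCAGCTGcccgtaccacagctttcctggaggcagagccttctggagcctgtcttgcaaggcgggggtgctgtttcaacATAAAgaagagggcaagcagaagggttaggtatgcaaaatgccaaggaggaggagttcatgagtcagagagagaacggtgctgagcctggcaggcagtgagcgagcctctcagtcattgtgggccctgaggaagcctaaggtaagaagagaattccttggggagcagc

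Matches of this kind are common and describe only these windows. TTTAT was found in 40.0% of 32841 RefSeq windows of the same length, GGGCGG in 35.7%, CAGCTG in 16.3%, TATAAA in 13.6% and AGATAA in 11.2%. Of the 14 windows of the 10 sulfation genes, 3 held TTTAT, 6 GGGCGG, 4 CAGCTG, 0 TATAAA and 2 AGATAA. Windows 1 and 2 of Gal3st1 overlap over most of their length, so the 14 are not all separate sequences.

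The remaining members that act on the 6-position were below background throughout. Chst2, a further N-acetylglucosamine 6-O-sulfotransferase, Chst7, which acts on N-acetylglucosamine and N-acetylgalactosamine, and Chst1, which sulfates galactose in keratan sulfate, were above background on 0 of 8 arrays each. So was Chst12, a chondroitin 4-O-sulfotransferase. Deposited signals of these 4 probes ran from 131 to 168 intensity units, and their lowest detection p-value on any array was 0.117. The lowest signal above background was 162 to 196 units per array. These genes have only a bound at this signal over background, and no difference between segments is given. Chst5, the intestinal N-acetylglucosamine 6-O-sulfotransferase, is no member but belongs to the same enzyme group, and it too was above background on 0 of 8 arrays.

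**Figure D3:**
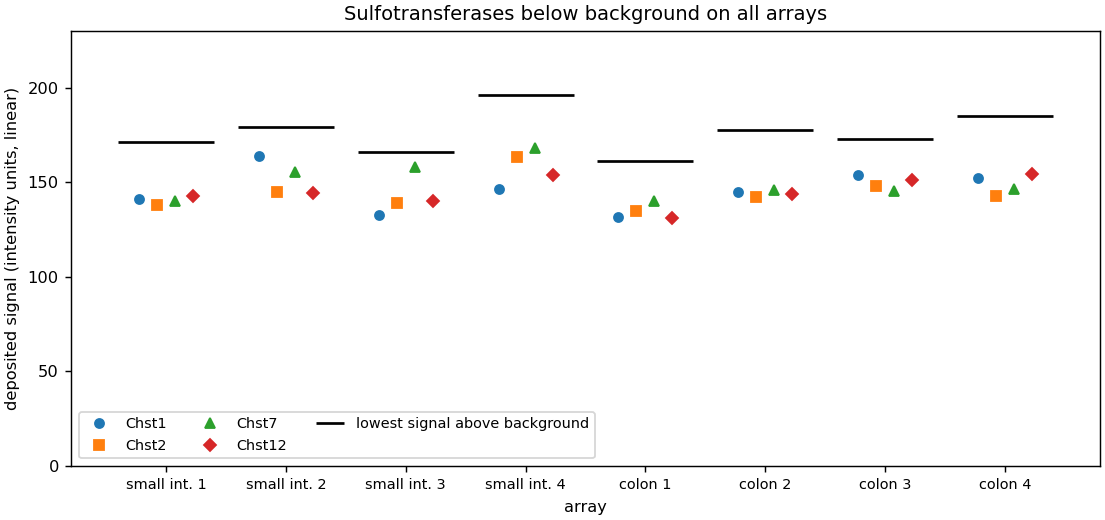
Deposited signal in linear intensity units (vertical axis) of Chst1, Chst2, Chst7 and Chst12 on each array, with a bar at the lowest signal above background of that array. All points lie under the bar of their own array, between 131 and 168 units.

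Chst11, the main chondroitin 4-O-sulfotransferase, did not pass the test between segments and stood close to the floor in both. It read 6.03, 5.60, 6.02 and 5.67 in small intestine and 5.89, 5.50, 6.09 and 5.34 in colon. The groups overlapped, and colon array 4 was not above background. The difference was -0.12 (95% interval -0.61 to 0.37, adjusted p = 0.740). It was called under 0 of 21 alternatives, with adjusted p from 0.355 to 0.998.

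The tested sulfation genes did not share one pattern within a segment. Small-intestinal arrays 3 and 4 were the highest of their segment for Papss2 and Gal3st2, whereas arrays 1 and 4 were the highest for Gal3st1, and Chst4 varied little there (SD 0.17). Colon array 3 was the lowest colon array for Papss1, Papss2, Gal3st1 and Gal3st2 (probe ILMN_3042923) but the highest for Chst4 and Chst11. On Gal3st2 probe ILMN_3117688 colon array 1 was the lowest (5.21). By the distance between centred log2 profiles over the 8 arrays, the genes nearest to Gal3st1 were Bglap2 (1.09 log2 units), Fam114a1 (1.09) and Oplah (1.11), where the median distance of all tested genes was 2.68. For Gal3st2 they were Cideb (0.41), Snx18 (0.45) and Gna11 (0.51), where the median was 2.48. These distances are a description over 8 arrays, and no test was made.

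The list for sulfate and PAPS supply, which also holds anion exchangers and PAP clearance, went both ways. Of 8 tested genes of sulfate and PAPS supply, colon had more of 2, small intestine more of 3, and 3 were not called, with a median of -0.22. Slc26a2, the sulfate transporter of chondrocytes and many epithelia, read 9.18, 9.63, 10.04 and 9.91 in small intestine and 11.31, 11.12, 10.80 and 10.78 in colon. The groups did not overlap, and Slc26a2 was higher in colon, by 1.31 log2 (SE 0.23, adjusted p = 0.00208). Slc26a3, a chloride and bicarbonate exchanger of the colon, was higher there by 1.91 (SE 0.22, adjusted p = 0.000107). Slc26a6, an anion exchanger of the small intestine, had a difference of -4.99 (SE 0.35, adjusted p = 3.11e-06). It exceeded background on 1 of 4 colon arrays, and the difference was -2.94 with no background correction. Bpnt1 clears PAP, a by-product of sulfotransferase reactions. Its difference was -2.18 (SE 0.43, adjusted p = 0.00381) on the brightest of 4 probes, and the other 3 were called lower in colon as well, with differences of -0.96 to -2.28. Without colon arrays 1 and 4 the call on the brightest probe was lost (adjusted p = 0.0545). The related gene Bpnt2, above background on all 8 arrays, was not called (-0.31, adjusted p = 0.442). The PAPS transporter Slc35b3 did not pass on its brightest probe (0.44, 95% interval 0.01 to 0.87, adjusted p = 0.137), and 1 of its other probes did (0.64, adjusted p = 0.0478).

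Of 9 other tested Golgi sulfotransferases, 3 rose in colon, 1 fell (Gal3st2c, by probe ILMN_3087413, which stands for the gene here) and 5 were not called, with a median of 0.33. Chst15, which adds a further sulfate to chondroitin sulfate, rose in colon by 1.42 (SE 0.28, adjusted p = 0.00396), and Hs3st3b1, a heparan sulfate 3-O-sulfotransferase, by 1.22 (SE 0.24, adjusted p = 0.00360). Each exceeded background on 2 of the 4 arrays of small intestine, and with no background correction the differences were 0.53 and 0.42. The Chst15 call was lost without scaling between arrays (adjusted p = 0.0901). A further 11 of the 23 with a probe were above background on none of the 8 arrays. The cytosolic sulfotransferases, which use PAPS on small molecules, also went both ways. Sult1a1 rose in colon by 6.60 (SE 0.23, adjusted p = 4.13e-08) and Sult1c2 by 3.65 (SE 0.35, adjusted p = 2.43e-05), Sult2b1 fell by 1.44 (SE 0.24, adjusted p = 0.00144), and 2 of 5 tested were not called. Sult1c2 exceeded background on 3 of 4 small-intestinal arrays, and its difference was 2.02 with no background correction. Sulfatases remove sulfate, most of them in the lysosome. Of 9 tested in this list, 4 rose in colon and 0 fell, with a median of 0.41. Arsb, which acts on dermatan sulfate, rose by 1.59 (SE 0.19, adjusted p = 0.000144) and Sgsh, which acts on heparan sulfate, by 1.02 (SE 0.22, adjusted p = 0.00760). A further Arsb probe, above background on all 8 arrays, was not called (0.60, adjusted p = 0.0812), and with no background correction the Arsb and Sgsh differences were 0.68 and 0.57. The Sgsh call was lost without scaling (adjusted p = 0.121) and without colon arrays 1 and 4 (0.0603).

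Enzymes that build the acceptor chains were also read. Of 14 tested enzymes of mucin core and chain synthesis, 8 rose in colon, 1 fell and 5 were not called, with a median of 0.93. B3galt5, which adds a galactose in beta-3 linkage, rose in colon by 4.65 (SE 0.25, adjusted p = 7.05e-07) and B3gnt7, which extends poly-N-acetyllactosamine and keratan sulfate chains, by 2.71 (SE 0.40, adjusted p = 0.000613). They exceeded background on 2 and 3 of the 4 small-intestinal arrays, and with no background correction the differences were 2.76 and 1.61. B4galt5, a beta-4 galactosyltransferase, fell by 1.31 (SE 0.18, adjusted p = 0.000401), and by 0.69 with no background correction. Of 11 tested genes of the sulfatide route, 2 rose in colon and 9 were not called. Fa2h, which hydroxylates the fatty acid of galactosylceramide, rose in colon by 5.10 (SE 0.32, adjusted p = 1.50e-06). Of the small-intestinal arrays, 1 of 4 read it over background, and with no background correction the difference was 3.22. Arsa, the sulfatase that degrades sulfatide, was higher by 0.78 (SE 0.24, adjusted p = 0.0388), and 9 of 22 alternatives did not keep that call (their adjusted p reached 0.255). Ugt8a, which makes galactosylceramide, the substrate of Gal3st1, was above background on 1 of 8 arrays, a colon array, and was not tested. Of 9 tested genes of chondroitin chain synthesis, only Csgalnact2 was called (0.64, SE 0.19, adjusted p = 0.0376), and 15 of 21 alternatives did not keep it (their adjusted p reached 0.555).

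**Figure D4:**
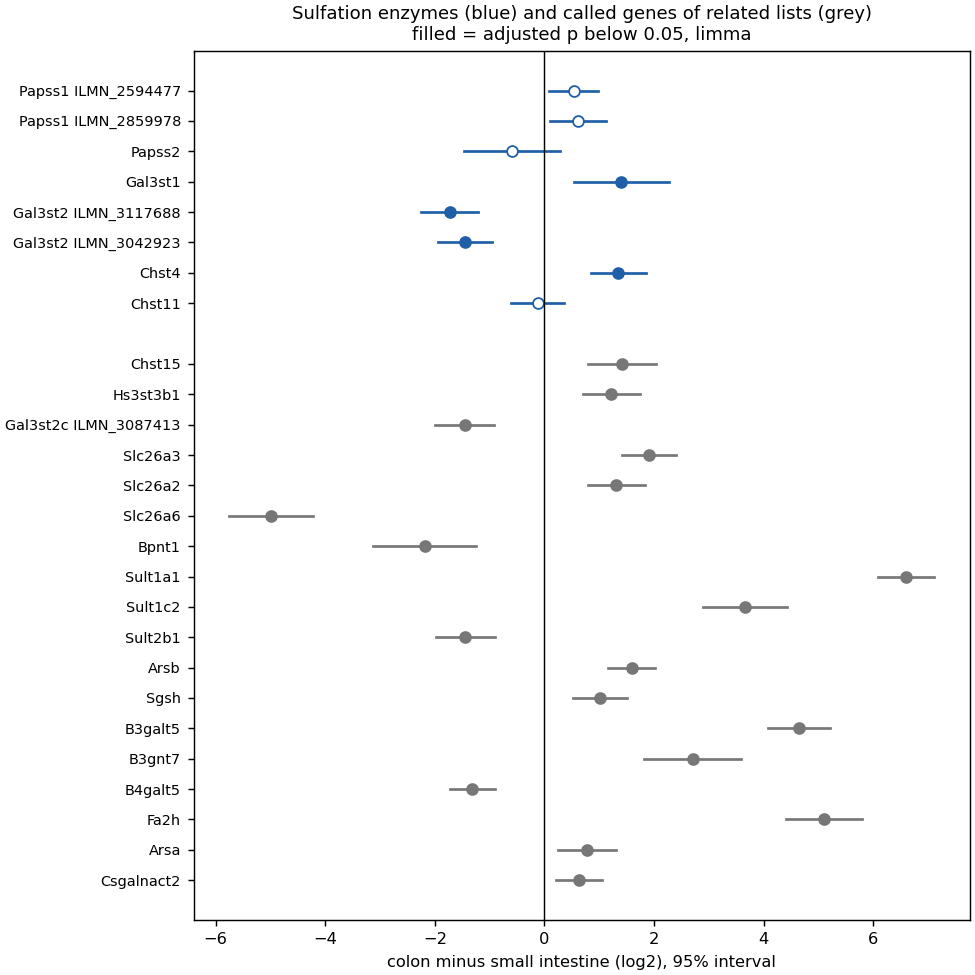
Difference in log2 intensity, colon minus small intestine (horizontal axis), with its 95% interval, for the 8 tested probes of sulfation enzymes (blue) and the called genes named from related lists (grey). Filled points have an adjusted p below 0.05; Gal3st1 and Chst4 lie to the right of 0 and both Gal3st2 probes to the left.

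Transcripts of other cell types moved with segment in the same samples. All 16 goblet cell genes with a probe were above background in colon and 15 in small intestine. Of these 16, 9 rose in colon, 0 fell and 7 were not called, with a median difference of 1.44 log2. Their summed intensity was 44915 to 49550 units per small-intestinal array and 65496 to 78580 per colon array. Of 17 enterocyte markers, 17 were higher in small intestine. Their summed intensity was 50458 to 76880 units per small-intestinal array and 4609.5 to 13041 per colon array. Among small-intestinal arrays it was highest on arrays 3 and 4, the arrays with the most Papss2 and Gal3st2. Among colon arrays it was highest on array 4, whereas Papss2 and Gal3st2 were highest on array 2. Of 9 Paneth cell markers, 8 fell in colon and 1 rose, with sums of 80395 to 92264 and 3985 to 16159 units. Although the sort took CD45-negative cells, 7 of 10 tested lymphocyte and myeloid markers fell in colon, with sums of 1658 to 3238 and 386 to 899 units over the 18 with a probe, and Cd79a, Ms4a1 and Adgre1 were above background on no array. Of 11 colonocyte markers, 9 were higher in colon, with sums of 3132 to 3836 and 13522 to 18259 units. Chst2 and Chst4 are also known to act in endothelium. Of 14 endothelial markers, 10, among them Cdh5 and Glycam1, were above background on no array and 4 on at least 1. Esam alone was called, lower in colon. Of 8 crypt base markers, 3 fell in colon and 0 rose, among them Olfm4 (-5.66) and Axin2 (-1.63). Of 12 enteroendocrine markers, 3 fell, among them Gip (-4.71), and 1 rose, Pyy (2.32). Of 2 tested stromal markers Tagln rose (1.31), and 7 of 13, Col1a1 and Col1a2 among them, were above background on no array. The 6 tested tuft cell markers had a median difference of -0.05. The part of these cell types in the sulfation differences was not tested. Colon arrays 1 and 4 held the higher Paneth sums, 16159 and 16118 units against 4797 and 3985 on arrays 2 and 3. Without both of them, Chst4 (1.68, adjusted p = 0.00254) and Gal3st2 (-1.53, adjusted p = 0.0126) kept their calls and Gal3st1 did not (1.14, adjusted p = 0.212). Only colon arrays 2 and 3 then remained, and over all probes calls fell from 1580 to 943 higher in colon and from 1339 to 805 lower. Gal3st1 also lost its call without colon array 2 alone (adjusted p = 0.0568), and the part of Paneth cell RNA was not tested.

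**Figure D5:**
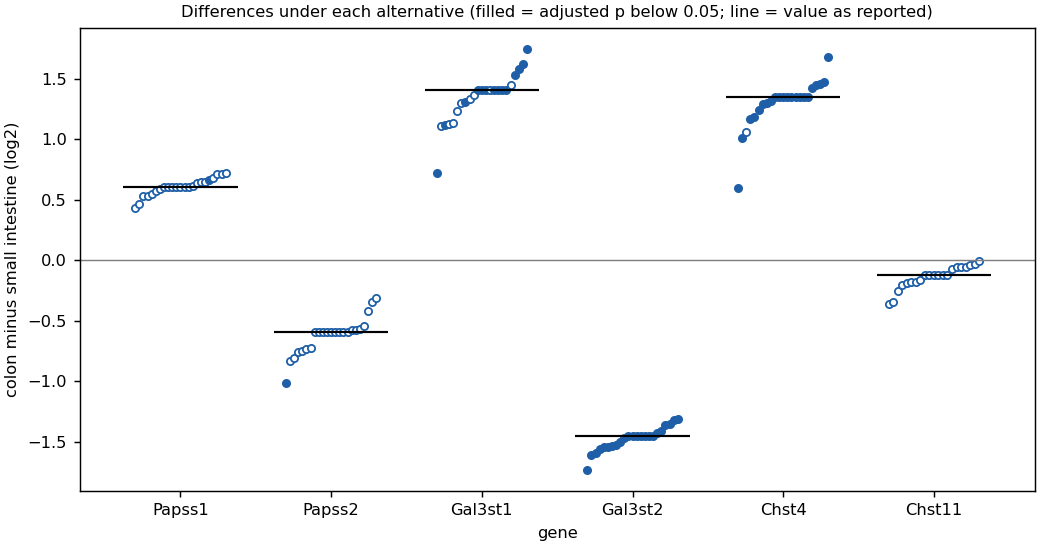
Difference in log2 intensity, colon minus small intestine (vertical axis), of the 6 tested sulfation genes under each alternative in processing or with arrays left out (points), with the reported value as a line. Filled points have an adjusted p below 0.05. No gene changes sign, all Gal3st2 points are filled, and Gal3st1 has 14 filled of 23. Alternatives that change only the filter, the variance prior or the replicate block repeat the reported difference.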

How the data were processed

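Sorted goblet cells of small intestine (4 arrays) and colon (4 arrays) were profiled on an Illumina mouse array. The deposited signal table holds mean intensity on a linear scale, not background-subtracted, and a detection p-value per probe, per the file headers and the values. The authors' processed intensity table is a straight-line rescaling of the same signals, with negative values, and was tried as an alternative, with 16 as the lowest value. The scanner software is not given in the sources used here, and the files name no slide or scan. The text of 1 cell, of no gene reported here, was corrupted and was restored from that straight line.

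Background was corrected with normexp from detection p-values (offset 16), then quantile normalization and log2 followed (neqc, limma 3.58.1, R 4.3.3). Python 3.11.15 with pandas 2.3.3 read the tables. Of 25697 probes, 23978 carried 1 gene symbol and 1719 none, from the platform annotation updated through RefSeq by Entrez identifier for 23962 and by accession for 9. Probes with a detection p below 0.05 on at least 4 of 8 arrays, 13618 in all, were fitted (lmFit and eBayes, two-sided, Benjamini-Hochberg over all of them, threshold 0.05). A gene stood on its tested probe with the highest mean. Marker sums are normalized intensities less the offset, over the brightest probe of each gene. The model was run on simulated arrays with independent normal noise per probe. They skipped normalization, so effects of scaling and background were not tested there.

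The members and lists were chosen with earlier results of these data known. Named were every member, at most 2 called genes in each direction from each list, and the 3 nearest profiles of the most raised and of the most lowered member. Some genes lie outside that rule and were chosen after their values were seen. These are Chst5, Slc35b3, Ugt8a, Bpnt2, the further Gal3st2c probe and the markers named as never above background. Alternatives covered background, scaling, filter, variance prior, array weights, the probe that stands for a gene, a replicate block and arrays left out. The number of arrays limits the precision.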

Additional observations from a re-analysis of the deposited data

How the results depend on the processing

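No tested sulfation gene changed sign under the 23 alternatives. Of 136 values of the 6 genes, 124 stayed on their side of the threshold, 10 lost a call and 2 gained one. Alternatives that change only the filter, the variance prior or the replicate block return the reported difference, so they could not change a sign. For genes with 1 tested probe, the alternatives on the choice of probe hardly differ from the reported fit. The number of sulfation genes called higher in colon, 2 as reported, was 0 without scaling between arrays and 3 with array weights, where Papss1 joined. It was 1, Chst4, on the authors' processed values and with no filter on dim probes. Gal3st1 lost its call in both (adjusted p = 0.0601 and 0.0773). The number was 1 without colon replicates 1 and 4, and 1 to 2 with any 1 array left out. The number higher in small intestine, 1 as reported, was 2 with array weights, where Papss2 joined Gal3st2, and 1 to 1 with any 1 array left out. The cause was not tested. Over all probes, 1580 rose in colon and 1339 fell. These became 744 and 1051 without scaling, 2672 and 2397 with array weights, 943 and 805 without colon replicates 1 and 4, and 1133 and 847 with probes above background on all arrays, where fewer probes were tested. With any 1 array left out they were 1176 to 2051 and 964 to 1803. Calls higher in colon were 54.1% as reported and 41.4% without scaling, where the median of all genes moved from 0.07 to -0.14. Relative to that median, Gal3st1 and Gal3st2 stood at 1.27 and -1.47 without scaling and at 1.34 and -1.52 as reported.

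The labels number the samples 1 to 4 in each segment. Same-numbered arrays deviated from their group means with correlations of -0.18 to 0.25, and 2 of 8 arrays correlated best with their own number. Whether a shared number means a shared animal or sort is not given in the labels, and these few arrays cannot decide it. With the replicate block, 1410 probes rose in colon and 1217 fell, and no call of a sulfation gene changed. Dim probes limit the rest: 4 of the 10 genes were not above background on any array. None of the groups of 4 tested among the values reported held an array standing apart by Dixon's criterion.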
